A study of Mus musculus with 3 samples.

Results

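The 10 genes examined here form the core of de novo lipogenesis, the making of fatty acids from sugar carbon, and were taken by symbol from the 32285 features of single-nucleus RNA-seq of mouse liver. They are Srebf1, Mlxipl, Acly, Acaca, Acacb, Fasn, Scd1, Elovl6, Thrsp and Me1, and each symbol matched 1 feature. There were 3 libraries, 1 per group, all from male mice labelled C57BL/6 (C57BL/6N in the design text) that were 8 weeks old when the diets began. The Aza-TdC library came from a liver on the MASLD diet with a drink of glucose (18.9 g/L) and fructose (23.1 g/L) for 18 weeks, with 5-Aza-4′-thio-2′-deoxycytidine, called Aza-TdC, a nucleoside analogue directed at the DNA methyltransferase DNMT1, given by mouth at 2 mg/kg every day between weeks 14 and 18. The MASLD library came from the same diet and drink for 18 weeks without the drug, and the SD library from a standard diet without the sugar drink. MASLD stands for metabolic dysfunction-associated steatotic liver disease. Each library was made from 120 mg of frozen liver by sorting DAPI-stained nuclei, and how many animals stand behind a library is not stated in the labels. No control for the drug's carrier and no drug-treated liver on the standard diet was analysed here.

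In de novo lipogenesis, citrate that leaves the mitochondria is split to acetyl-CoA, acetyl-CoA is carboxylated to malonyl-CoA, and fatty acid synthase condenses malonyl-CoA to palmitate, which is then elongated and desaturated. Liver controls the pathway largely through transcription: SREBP1c, made from Srebf1, carries the insulin and liver X receptor signal, and ChREBP, made from Mlxipl, carries the carbohydrate signal. The pathway is known as a source of liver triglyceride in steatosis, and in the lobule its enzymes and those of other metabolic routes are arranged between the portal field and the central vein.

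The files held 7598, 6928 and 7139 nuclei in Aza-TdC, MASLD and SD, with 51789068, 43569644 and 45162618 UMIs (unique molecular identifiers, each counting 1 captured RNA molecule). Hepatocyte nuclei were those of clusters that were not shallow and in which no other cell class reached a median marker log2 ratio of 3. There were 6806 in Aza-TdC, 5974 in MASLD and 6857 in SD. Their median depth was 6756, 6413 and 5946 UMIs, and their median mitochondrial share was 0.0816%, 0.188% and 0.124%. All 15 hepatocyte markers were found in each library, with Alb the highest at 6646, 4721 and 6034 CPM, a gene's UMIs scaled to 1000000 UMIs of the library's hepatocyte nuclei. Hepatocytes of the libraries clustered apart: SD nuclei filled clusters 0 to 3, MASLD nuclei mostly clusters 15, 17 and 18, and Aza-TdC nuclei clusters 10, 11 and 12. The library comparisons below are therefore comparisons between different numbered clusters. Cluster 17, the largest of MASLD with 3164 nuclei, could not be named by itself because the T cell gene Themis was among its leading genes at 89.1 CPM. Themis stood at 990 CPM in the T and NK cell-like cluster, and no other T cell marker was above 1.46 CPM in cluster 17. Erythroid markers were raised below that limit in clusters 15, 17 and 18, with median log2 ratios of 1.68, 1.85 and 1.17 against all other clusters. They summed to 59.9, 364 and 38.3 CPM in hepatocyte nuclei of Aza-TdC, MASLD and SD, and their part in the results was not tested. Barcodes shared between libraries numbered 15 (Aza-TdC and MASLD), 9 (Aza-TdC and SD) and 11 (MASLD and SD). The transcript of the drug's target, Dnmt1, stood at 9.87 CPM in Aza-TdC, 9.01 CPM in MASLD and 7.74 CPM in SD, which checks nothing about a drug that acts on the protein.

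With 1 library per group, a difference between libraries has no replicate check, and no p-value was computed between groups. All intervals are 95% intervals for counting error only, exact Poisson for levels and exact binomial for ratios and shares. A gene is called higher or lower where the log2 ratio of CPM reached 1, a 2-fold difference, and its interval excluded 0. Because CPM is a share of each library's own UMIs, less RNA of a gene and more RNA of others cannot be told apart. The median ratio of all genes tested lay 0.15 above 0 on the log2 scale for MASLD against SD, and the ratios below can be read relative to it.

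The promoters of Acly, Fasn and Mlxipl are shown because of the profiles of these genes over libraries and zones. Those of Acly and Fasn had nearly the same shape, with smaller differences for Fasn. Mlxipl, a regulator, ran the other way along the lobule. Each promoter is the 250 bases before the RefSeq start in GRCm38.p6, written 5′ to 3′ on the strand of the gene. Capitals mark matches on either strand to 5 motifs, CCAAT (bound by NF-Y), GGGCGG (the GC box of Sp1), CACGTG (an E-box), TCACNCCAC (the core of a sterol regulatory element) and a direct repeat known from liver X receptors. Acly lies at chr11:100528001-100528250 on the minus strand, Fasn at chr11:120824548-120824797 on the minus strand, and the second of 2 Mlxipl windows at chr5:135089640-135089889 on the plus strand.
Acly: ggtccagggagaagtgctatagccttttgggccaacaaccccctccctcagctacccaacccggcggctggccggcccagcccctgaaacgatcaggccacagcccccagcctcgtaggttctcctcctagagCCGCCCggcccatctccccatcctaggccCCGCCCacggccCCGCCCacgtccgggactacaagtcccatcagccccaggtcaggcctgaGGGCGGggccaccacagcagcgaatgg
Fasn: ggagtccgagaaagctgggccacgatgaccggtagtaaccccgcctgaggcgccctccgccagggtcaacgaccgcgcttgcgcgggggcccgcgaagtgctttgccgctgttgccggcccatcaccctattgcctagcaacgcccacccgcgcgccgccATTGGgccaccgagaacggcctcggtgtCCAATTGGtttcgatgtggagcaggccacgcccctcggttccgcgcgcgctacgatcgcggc
Mlxipl: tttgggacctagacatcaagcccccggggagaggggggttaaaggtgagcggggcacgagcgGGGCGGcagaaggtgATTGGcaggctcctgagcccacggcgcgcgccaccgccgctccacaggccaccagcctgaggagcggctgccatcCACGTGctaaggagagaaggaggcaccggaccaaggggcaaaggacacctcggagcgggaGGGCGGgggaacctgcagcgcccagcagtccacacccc
Position -1 is the base before the start, and a motif's position is that of its first base. The Acly window held 4 GC boxes, at -117, -88, -76 and -27, and 14 CpG dinucleotides. The Fasn window held 3 CCAAT matches, at -90, -62 and -59, of which the last 2 overlap as CCAATTGG, and 33 CpG, more than 96.0% of 32851 windows of the same length. DNA methylation was not measured here. The Mlxipl window held the only CACGTG among the members' 13 windows, at -98. The other Mlxipl window, not shown, held the only TCACNCCAC among them, at -136. A CCAAT match was present in 33.8% of all windows, GGGCGG in 32.7%, CACGTG in 6.02% and TCACNCCAC in 1.05%, and the median window held 6 CpG. RefSeq promoters were matched for 9 of the 10 members, all except Scd1. A match describes the letters only and names no bound factor.

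Against SD, the MASLD library held more of the desaturase transcript Scd1 and of Acacb and Srebf1, and less of Elovl6 and Acly. Of the 10 members, 3 were called higher, against 13.0% of 15771 genes tested, and 2 were called lower, against 4.84%. The members' median log2 ratio was -0.36, beside 0.15 over all genes tested. The members therefore did not differ in 1 direction: the ratios ran between -2.52 and 3.50.

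The regulators differed in opposite directions. Srebf1 (chr11:60199089-60222581, minus strand; coordinates of genes are GRCm38), the gene of the SREBP1 transcription factors, stood at 246 CPM (241 to 251) in MASLD and 112 CPM (108 to 115) in SD, which gives a log2 ratio of 1.14 (1.09 to 1.19). Mlxipl (chr5:135089890-135138382, plus strand), the gene of ChREBP, stood at 1230 CPM in MASLD and 2043 CPM in SD, which gives a log2 ratio of -0.73 (-0.75 to -0.72), which is within 2-fold. Only 8.33% of tested genes had a lower ratio than Mlxipl.

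The enzymes of carbon supply and chain building were lower or near SD, with Acacb as the exception. Acly (chr11:100476353-100528000, minus strand), which splits cytosolic citrate to acetyl-CoA, stood at 63.9 CPM (61.5 to 66.4) in MASLD and 345 CPM (340 to 350) in SD, which gives a log2 ratio of -2.43 (-2.49 to -2.37). Fasn (chr11:120805846-120824547, minus strand), the synthase itself, stood at 72.5 CPM in MASLD and 142 CPM in SD, which gives a log2 ratio of -0.97 (-1.03 to -0.91). Fasn thus lay just inside the 2-fold threshold, and passed it in 3 alternatives, at -1.09 when libraries were scaled by the median ratio over genes, at -1.01 with nuclei thinned to 2000 UMIs and at -1.19 with the mean UMIs of other cell classes taken off. The acetyl-CoA carboxylases, which make malonyl-CoA, differed from each other. Acaca (chr11:84129672-84401651, plus strand), the cytosolic enzyme that feeds synthesis, stood at 558 CPM in MASLD and 730 CPM in SD, which gives a log2 ratio of -0.39 (-0.41 to -0.36). Acacb (chr5:114146535-114250761, plus strand), the mitochondria-bound enzyme whose malonyl-CoA restrains fatty acid oxidation, stood at 374 CPM in MASLD and 145 CPM in SD, which gives a log2 ratio of 1.37 (1.33 to 1.41).

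The modifying enzymes of the fatty acid chain differed in opposite directions and by more than any other member. Scd1 (chr19:44394455-44407879, minus strand), which makes oleate and palmitoleate, stood at 909 CPM (900 to 918) in MASLD and 80.6 CPM (77.9 to 83.2) in SD, which gives a log2 ratio of 3.50 (3.45 to 3.55), an 11.3-fold difference. Elovl6 (chr3:129532355-129638495, plus strand), which elongates palmitate to stearate, stood at 164 CPM (160 to 168) in MASLD and 939 CPM (930 to 948) in SD, which gives a log2 ratio of -2.52 (-2.56 to -2.48). Only 0.558% of tested genes had a lower ratio than Elovl6, and 98.9% had a lower ratio than Scd1. Thrsp (chr7:97412938-97417730, minus strand), the Spot 14 protein that promotes lipogenesis, stood at 469 CPM in MASLD and 450 CPM in SD, which gives a log2 ratio of 0.06 (0.03 to 0.09). Me1 (chr9:86581371-86695953, minus strand), the malic enzyme that supplies NADPH, stood at 293 CPM in MASLD and 370 CPM in SD, which gives a log2 ratio of -0.33 (-0.37 to -0.30).

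**Figure D1:**
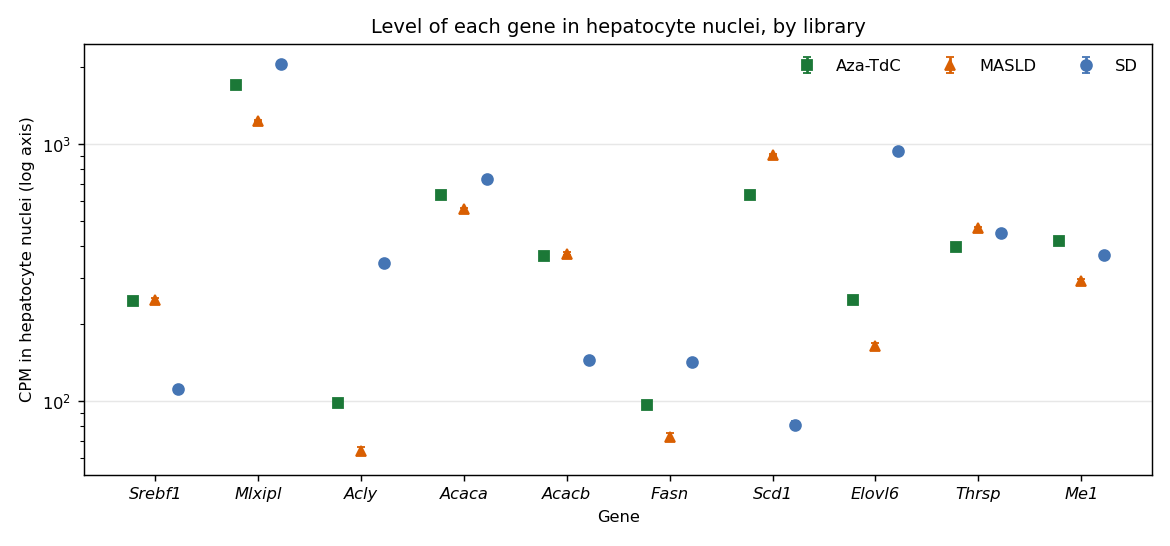
Level of each of the 10 genes in hepatocyte nuclei, in CPM on a log axis, in the Aza-TdC, MASLD and SD libraries from left to right, 1 library per group. Bars are exact Poisson 95% intervals and mostly smaller than the symbols. Scd1, Srebf1 and Acacb lie higher and Acly and Elovl6 lower in Aza-TdC and MASLD than in SD.

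Signs of RNA quality moved with the libraries. Of 9 such genes, 4 were called higher in MASLD than in SD and none lower, with mt-Cytb at 271 CPM in MASLD and 94.1 CPM in SD, Tmsb4x at 20.6 CPM in MASLD and 2.84 CPM in SD, and the nuclear RNA Malat1 at 30925 CPM in MASLD and 51498 CPM in SD. Their part in the members' ratios was not tested as such. In nuclei with a mitochondrial share of at most 0.0816%, of which 586 remained in MASLD and 1586 in SD, the ratio of Scd1 was 3.26, that of Elovl6 was -2.83, and that of Fasn was -0.83.

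Against MASLD, no member passed 2-fold in the Aza-TdC library in either direction, where 2.80% of 15941 genes tested were called higher and 4.87% lower, 7.67% in all. The members' median log2 ratio was 0.30, beside -0.09 over all genes tested. Acly was at 98.2 CPM in Aza-TdC and 63.9 CPM in MASLD, a log2 ratio of 0.62 (0.55 to 0.69). Elovl6 was at 247 CPM in Aza-TdC and 164 CPM in MASLD, a ratio of 0.59 (0.55 to 0.63). Both lay between MASLD and SD. Me1 was at 418 CPM in Aza-TdC and 293 CPM in MASLD (0.51, 0.48 to 0.54), which is above SD as well. Mlxipl was at 1704 CPM in Aza-TdC and 1230 CPM in MASLD (0.47, 0.45 to 0.49), and Fasn at 96.7 CPM in Aza-TdC and 72.5 CPM in MASLD (0.41, 0.35 to 0.48). For these 5 members the Aza-TdC level over all hepatocyte nuclei lay above that of MASLD, by 1.33-fold to 1.54-fold. The libraries differed in their make-up along the lobule, from the central vein (rich in Cyp2e1) to the portal field (rich in Cyp2f2). In 5 bins with the same bounds in all libraries, described below, the most Cyp2f2-rich bin held 2085 nuclei in Aza-TdC and 838 in MASLD. From the Cyp2e1-rich to the Cyp2f2-rich bin the ratio of Acly was then -0.11, -0.21, 0.33, 0.36 and 0.38, each below its ratio over all nuclei. That of Fasn was -0.04, 0.08, 0.20, 0.47 and 0.27, and the intervals of its first 3 bins held 0. The ratio of Mlxipl stayed between 0.50 and 0.57 over the bins, that of Elovl6 between 0.33 and 0.51 and that of Me1 between 0.06 and 0.74.

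Of the members called higher in MASLD than in SD, Srebf1 and Acacb were near the MASLD level over all hepatocyte nuclei of Aza-TdC. Scd1 lay below it. Srebf1 was at 245 CPM in Aza-TdC and 246 CPM in MASLD, a log2 ratio of -0.01 (-0.05 to 0.03) over all hepatocyte nuclei. In the bins with the same bounds it was lower in Aza-TdC in each, with ratios of -0.18, -0.30, -0.18, -0.14 and -0.08, of which the first 4 had intervals that excluded 0. Acacb was at 365 CPM in Aza-TdC and 374 CPM in MASLD (-0.04, -0.07 to -0.00). Scd1 was at 634 CPM in Aza-TdC and 909 CPM in MASLD (-0.52, -0.54 to -0.50). The Scd1 ratio was -0.06 in nuclei of low mitochondrial share, of which 3403 remained in Aza-TdC and 586 in MASLD, and 0.20 once the mean UMIs of other cell classes were taken off. What part of these moves goes with the loss of nuclei was not tested. Of the 9 signs of RNA quality, 5 were called lower in Aza-TdC than in MASLD and none higher, with mt-Cytb at 68.4 CPM in Aza-TdC and 271 CPM in MASLD. Thrsp was at 398 CPM in Aza-TdC and 469 CPM in MASLD (-0.24, -0.27 to -0.21). Acaca was at 631 CPM in Aza-TdC and 558 CPM in MASLD (0.18, 0.15 to 0.20) over all hepatocyte nuclei. From the Cyp2e1-rich to the Cyp2f2-rich bin with the same bounds, the Acaca ratio was -0.14, -0.16, 0.08, 0.14 and 0.19.

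Against SD, the Aza-TdC library shared the pattern of the MASLD library, and both use the same SD library. Of the members, 3 were called higher, against 10.0% of 15879 genes tested, and 2 lower, against 4.79%, with a median log2 ratio of -0.19 beside 0.06 over all genes tested. Scd1 had a log2 ratio of 2.98 (2.93 to 3.03), Acacb 1.33 (1.29 to 1.38) and Srebf1 1.14 (1.09 to 1.18). Elovl6 had a ratio of -1.93 (-1.96 to -1.90) and Acly of -1.81 (-1.86 to -1.77). Fasn had a ratio of -0.55 (-0.61 to -0.50).

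The direction of the large differences from SD was the same in the numbered clusters, with Srebf1 and 1 small cluster as exceptions. In MASLD, clusters 15, 17 and 18 held Scd1 at 1017, 832 and 647 CPM, against 66.4 to 126 CPM in SD clusters 0 to 3. Elovl6 stood between 140 and 205 CPM in these MASLD clusters and between 868 and 1055 CPM in the SD clusters. Acacb stood between 275 and 386 CPM in MASLD and between 137 and 154 CPM in SD. Srebf1 overlapped: cluster 18, led by the pericentral genes Glul and Slc1a2, held 130 CPM, below the 150 CPM of SD cluster 3. Acly stood between 21.2 and 101 CPM in MASLD clusters 15, 17 and 18 and between 152 and 498 CPM in SD clusters.

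A small cluster present in both MASLD-diet libraries stood apart. Cluster 19, with 72 nuclei in Aza-TdC and 79 in MASLD, was led by genes such as Fgf21, Nupr1 and Angptl8. Its Scd1 level was 1455 CPM in Aza-TdC and 1847 CPM in MASLD, and its Srebf1 level was 479 CPM in Aza-TdC and 404 CPM in MASLD. Thrsp stood at 690 CPM there in Aza-TdC and 1030 CPM in MASLD, and Acly at 166 CPM in Aza-TdC and 176 CPM in MASLD. The last value lies above that of SD cluster 2. Its median depth, 9776 UMIs, was also above that of the other clusters named here. Without clusters 15 and 17, which leaves 452 MASLD nuclei, the MASLD to SD ratio was 0.86 for Srebf1 and 0.93 for Acacb, and neither was called. Because the members took part in clustering, cluster values are given as a description only.

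**Figure D2:**
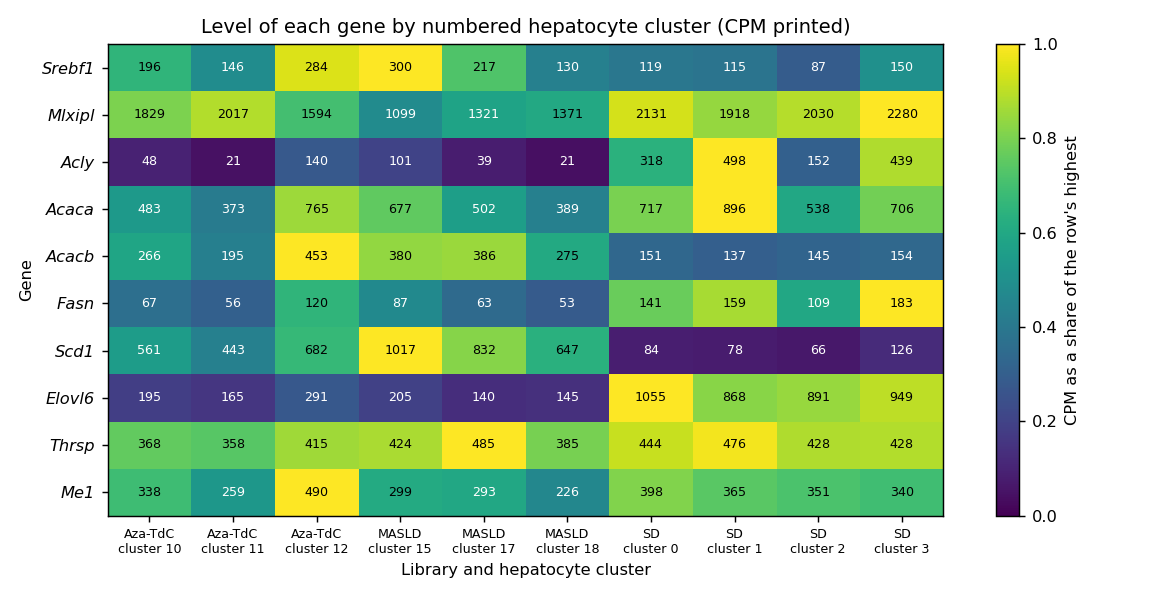
Level of each gene in the larger hepatocyte clusters of Aza-TdC, MASLD and SD, with the CPM printed in each cell and the colour giving the CPM as a share of the highest in its row. Scd1 reads 443 to 682 CPM in Aza-TdC clusters and 647 to 1017 CPM in MASLD clusters, and at most 126 CPM in SD clusters. The cluster of 72 and 79 nuclei led by Fgf21 is not drawn.

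Along the lobule, Acly was the member with the steepest gradient in each library. Nuclei with at least 3 UMIs of the pericentral gene Cyp2e1 and the periportal gene Cyp2f2 together were ordered by the log2 ratio of the 2 genes and divided into 5 zones of equal size within each library, of about 1122 nuclei in Aza-TdC, 1030 in MASLD and 1080 in SD. The order was checked with other zonation genes: all 8 pericentral genes were called lower in the Cyp2f2-rich zone in each library, and 6, 7 and 5 of 8 periportal genes were called higher in Aza-TdC, MASLD and SD. Of the members, 1 was called higher in the Cyp2f2-rich zone in each library and none lower. The share of all genes called higher there was 4.02% in Aza-TdC, 3.30% in MASLD and 2.41% in SD, and the share called lower was 2.96%, 3.35% and 3.30%.

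Acly stood at 26.5, 40.1, 119, 134 and 139 CPM from the Cyp2e1-rich to the Cyp2f2-rich zone in Aza-TdC, at 32.6, 31.7, 46.2, 87.1 and 105 CPM in MASLD, and at 168, 220, 310, 455 and 483 CPM in SD. The log2 ratio of the Cyp2f2-rich over the Cyp2e1-rich zone was 2.39 (2.19 to 2.60) in Aza-TdC, 1.69 (1.48 to 1.90) in MASLD and 1.52 (1.43 to 1.62) in SD. Acly was thus periportal in all libraries, and even its highest zone in MASLD lay below the lowest zone of SD. The carboxylase Acaca ran the same way, with ratios of 0.84, 0.56 and 0.77 in Aza-TdC, MASLD and SD. Fasn did too, with ratios of 0.98 (0.83 to 1.14) in Aza-TdC, 0.59 (0.41 to 0.76) in MASLD and 0.51 (0.39 to 0.64) in SD. The ratios of Acaca and Fasn lay within 2-fold in each library.

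Mlxipl ran the other way in each library, with ratios of -0.30 (-0.33 to -0.26) in Aza-TdC, -0.31 (-0.35 to -0.27) in MASLD and -0.12 (-0.16 to -0.09) in SD. It was the only member below 0 in every library with an interval that excluded 0. Srebf1, the other regulator, leaned to the Cyp2f2-rich side, with ratios of 0.75, 0.64 and 0.19. Elovl6 had an end ratio of 0.01 (-0.04 to 0.06) in SD, where it was highest between the ends, at 880, 1006, 988, 894 and 888 CPM from the Cyp2e1-rich to the Cyp2f2-rich zone. It leaned to the Cyp2f2-rich side in the MASLD-diet libraries, at 0.70 in Aza-TdC and 0.66 in MASLD. Scd1 had ratios of 0.39, 0.35 and 0.07 in Aza-TdC, MASLD and SD. Its high level in the MASLD-diet libraries was present in every zone. It lay between 512 and 700 CPM in Aza-TdC and between 778 and 1042 CPM in MASLD. Endothelial-, macrophage- and stellate-like nuclei together held more, 915 CPM in Aza-TdC and 1669 CPM in MASLD. What part of the zone levels is free RNA was not tested. Thrsp had end ratios of 0.09, -0.00 and 0.17, and in MASLD it was lowest between the ends, at 418 CPM in zone 4 against 514 CPM in both end zones.

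Acacb and Me1 had a gradient in Aza-TdC, and their end ratios in MASLD and SD had intervals that held 0. Acacb stood at 223, 247, 412, 440 and 438 CPM from the Cyp2e1-rich to the Cyp2f2-rich zone in Aza-TdC, at 371, 366, 377, 374 and 370 CPM in MASLD, and at 149, 158, 140, 135 and 137 CPM in SD. Its end ratio was 0.98 (0.89 to 1.06) in Aza-TdC, -0.01 (-0.08 to 0.07) in MASLD and -0.12 (-0.25 to 0.00) in SD. The near equality of Acacb between Aza-TdC and MASLD over all hepatocyte nuclei was thus made of a lower level in the Cyp2e1-rich zone (-0.73, -0.82 to -0.65) and a higher level in the Cyp2f2-rich zone (0.25, 0.18 to 0.32). Me1 stood at 290, 321, 467, 487 and 463 CPM over the zones in Aza-TdC, at 270, 286, 294, 321 and 278 CPM in MASLD, and at 353, 373, 389, 380 and 368 CPM in SD. Its end ratio was 0.68 (0.60 to 0.75) in Aza-TdC, 0.04 (-0.05 to 0.13) in MASLD and 0.06 (-0.02 to 0.14) in SD. With zones set by the check genes instead, the end ratios of Acacb and Fasn in Aza-TdC were both 1.05 and passed 2-fold. Without clusters 15 and 17, which leaves 452 MASLD nuclei, the end ratio of Me1 in MASLD was 0.68 and that of Acacb 0.01. The difference between libraries in these gradients has no replicate check.

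**Figure D3:**
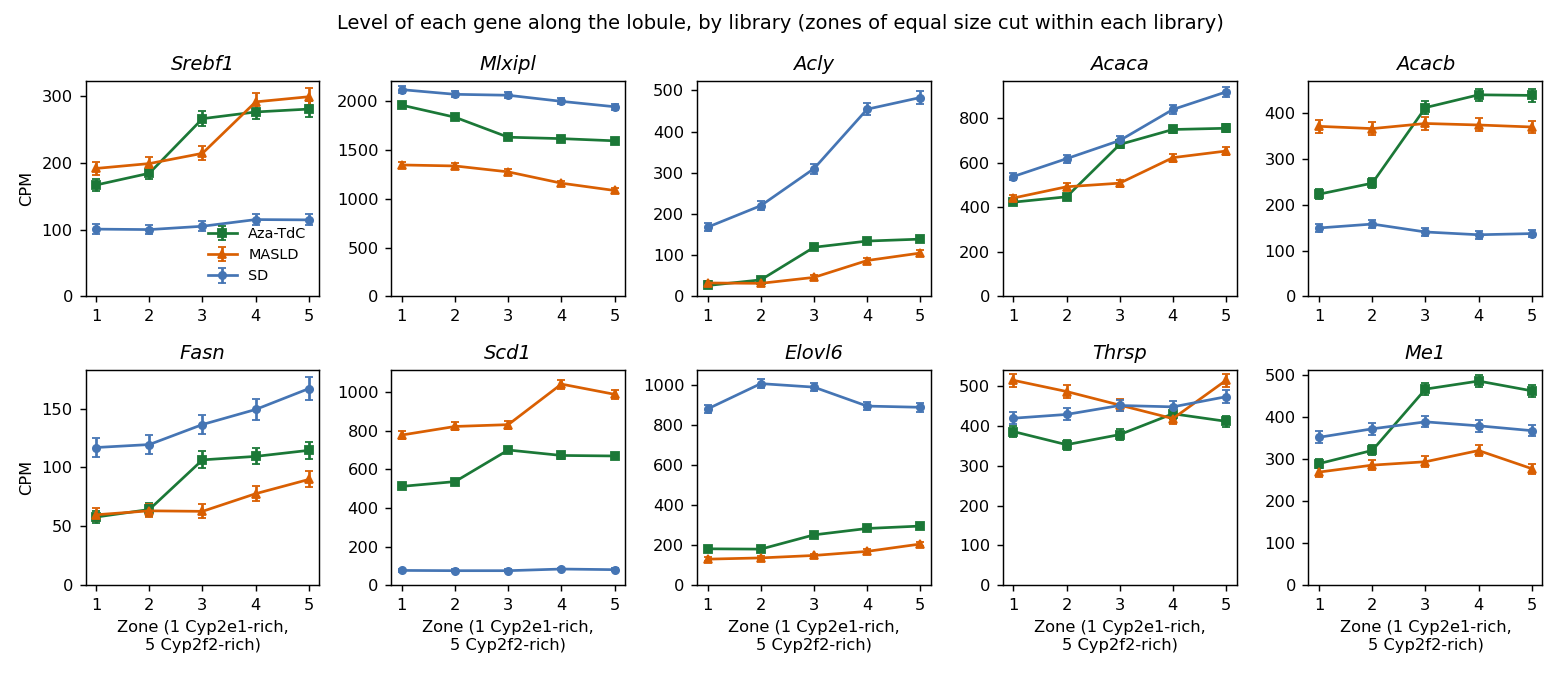
Level of each gene in CPM over the zones of hepatocyte nuclei, from Cyp2e1-rich (1, pericentral) to Cyp2f2-rich (5, periportal), with exact Poisson 95% intervals, 1 library per line. Acly climbs toward the Cyp2f2-rich side in all 3 libraries, and Acacb and Me1 step up between zones 2 and 3 in Aza-TdC. Zones are cut within each library.

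Zones cut within a library need not be the same place in the lobule. With the bounds of SD used in all libraries, the Cyp2f2-rich bin held 2085 nuclei in Aza-TdC, 838 in MASLD and 1080 in SD, and the Cyp2e1-rich bin held 1631, 2098 and 1080. The end ratio of Acacb in Aza-TdC was then 0.96, and its ratio of Aza-TdC to MASLD was -0.71 (-0.77 to -0.64) in the Cyp2e1-rich bin and 0.23 (0.16 to 0.29) in the Cyp2f2-rich bin. Over these bins Acacb in Aza-TdC stood at 226, 255, 322, 443 and 439 CPM, with its largest rise between bins 3 and 4. Me1 in Aza-TdC stood at 299, 310, 416, 488 and 474 CPM. By cluster, Acacb in Aza-TdC stood at 195 CPM in cluster 11, led by pericentral genes such as Glul, at 266 CPM in cluster 10 and at 453 CPM in cluster 12. Median depth in Aza-TdC was 6929 UMIs in zone 2 and 7051 UMIs in zone 3.

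The 5 members called between MASLD and SD kept their direction in every zone. Scd1 had log2 ratios of MASLD to SD between 3.34 and 3.63 over the zones, Acacb between 1.21 and 1.48, and Srebf1 between 0.93 and 1.38. Elovl6 had ratios between -2.88 and -2.11 and Acly between -2.80 and -2.20. For Aza-TdC against MASLD the ratio of Acly was -0.30 (-0.56 to -0.03) in the Cyp2e1-rich zone, 1.37 in the middle zone and 0.40 (0.27 to 0.53) in the Cyp2f2-rich zone. The middle zone did not cover the same log2 ratios of Cyp2f2 to Cyp2e1 in both libraries: it began at -2.68 in Aza-TdC, and it ended at -2.62 in MASLD. With the same bounds in both, the ratio of Acly in the middle bin was 0.33 (0.08 to 0.59).

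**Figure D4:**
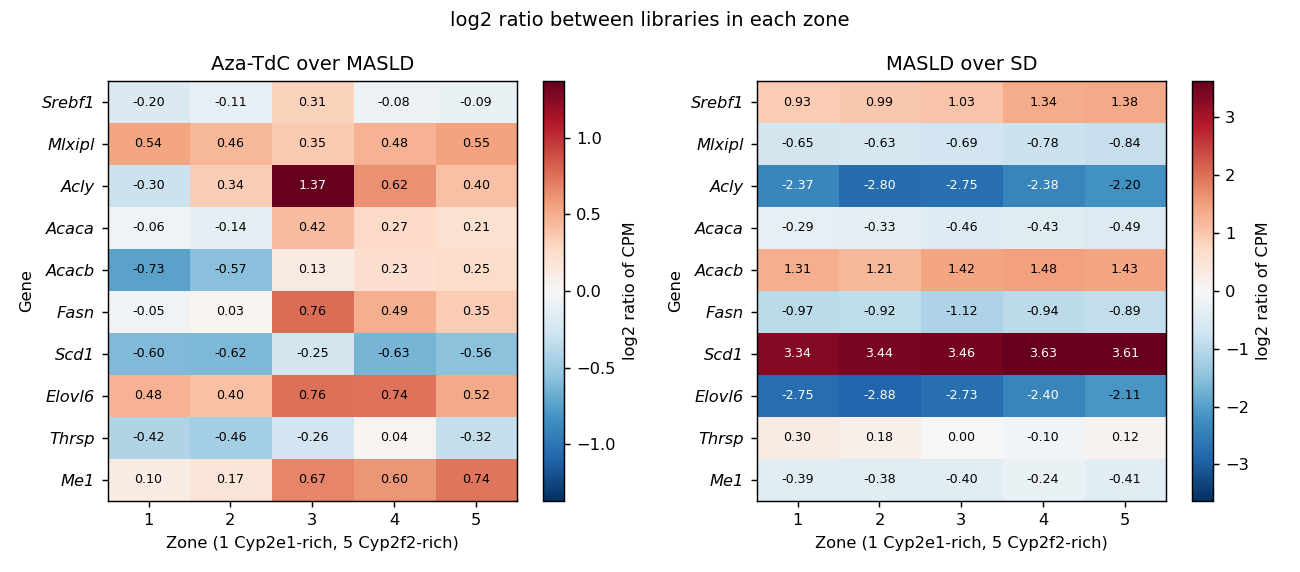
log2 ratio of CPM between libraries in each zone from Cyp2e1-rich (1) to Cyp2f2-rich (5), Aza-TdC over MASLD on the left and MASLD over SD on the right, each with its own colour scale. Acacb changes sign along the lobule on the left (-0.73 to 0.25), while Scd1 stays between 3.34 and 3.63 on the right.

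To compare the nuclei of a library with each other, each was thinned to 2000 UMIs, which left out 98, 95 and 147 shallower nuclei in Aza-TdC, MASLD and SD. Across nuclei of a library the counts of member pairs were nearly unrelated, with the highest of 45 correlations at 0.09 in Aza-TdC, 0.07 in MASLD and 0.11 in SD. Such values from sparse counts are a description and no finding. For Elovl6 the variance between nuclei was 1.55 times the mean in Aza-TdC, 1.33 times in MASLD and 2.48 times in SD. This ratio can rise with the mean, and the level of Elovl6 was highest in SD. It therefore does not rank the libraries by relative spread between nuclei.

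Shares of nuclei followed the levels for Acly and Elovl6. After thinning to 1000 UMIs, Acly was found in 9.55% of Aza-TdC, 6.51% of MASLD and 28.6% of SD hepatocyte nuclei, and in 4.46%, 6.17% and 11.3% of endothelial-like nuclei, in which it serves as a measure of free RNA. Without thinning the hepatocyte shares were 43.1%, 30.6% and 76.3% at median depths of 6756, 6413 and 5946 UMIs, and the endothelial-like shares were 9.78%, 11.1% and 27.8% at 1628, 1796 and 2095 UMIs. The thinned share of Acly in MASLD hepatocyte nuclei had an interval (5.90% to 7.17%) that held the 6.17% of endothelial-like nuclei. This share is not read as expression. Per nucleus, before thinning, endothelial-, macrophage- and stellate-like nuclei held 0.131 Acly UMIs in MASLD, which is 29.6% of the 0.442 in hepatocyte nuclei, and the unthinned share was higher in hepatocyte nuclei, which were also deeper. Elovl6 was found in 20.4% of Aza-TdC, 14.5% of MASLD and 51.4% of SD hepatocyte nuclei after thinning, and in 7.01%, 4.32% and 20.9% of endothelial-like nuclei.

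Scd1 UMIs were not restricted to hepatocyte nuclei. After thinning to 1000 UMIs it was found in 47.5% of Aza-TdC, 57.6% of MASLD and 8.49% of SD hepatocyte nuclei, and in 68.8%, 87.0% and 17.4% of endothelial-like nuclei. Among macrophage-like nuclei it was found in 144 of 288 in Aza-TdC, 59.7% in MASLD and 24.2% in SD. Without thinning the shares were 95.9%, 97.6% and 38.7% of hepatocyte nuclei and 87.5%, 95.6% and 37.4% of endothelial-like nuclei. Its summed level in endothelial-, macrophage- and stellate-like nuclei was 915 CPM in Aza-TdC, 1669 CPM in MASLD and 163 CPM in SD, above the hepatocyte level in each library. Per nucleus these other classes held 59.5%, 75.4% and 89.6% of the Scd1 UMIs of a hepatocyte nucleus in Aza-TdC, MASLD and SD. For the other 9 members this share lay between 11.4% and 39.9%. The pooled classes differed for Acly in Aza-TdC. Macrophage-like nuclei held 114 CPM (95.7 to 136), hepatocyte nuclei 98.2 CPM, endothelial-like nuclei 63.2 CPM and stellate-like nuclei 53.0 CPM. Since the thinned hepatocyte shares of Scd1 do not stand above those of endothelial-like nuclei, they are not read as a measure of hepatocyte expression. The unthinned shares stood higher in hepatocyte nuclei in Aza-TdC, at 95.4% to 96.4% against 81.8% to 91.9%, and their intervals overlapped in MASLD and SD, at a greater depth of hepatocyte nuclei in each library. Hepatocyte markers were found in endothelial-like nuclei too, at a median of 0.517, 0.542 and 0.503 of their hepatocyte CPM in Aza-TdC, MASLD and SD. For Scd1 this ratio was 2.06, 2.55 and 2.21. In the left-out cluster 16, shallow and rich in erythroid genes, Scd1 stood at 3266 CPM in Aza-TdC and 2244 CPM in MASLD. Endothelial-like nuclei held 1307 and 2313 CPM. What part of the CPM is free RNA, in hepatocyte nuclei or in other classes, was not tested.

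Once the mean UMIs per nucleus of endothelial-, macrophage- and stellate-like nuclei were taken off, the direction of each ratio of MASLD to SD was unchanged. Scd1 then had 1.87, 1.54 and 0.0541 UMIs per hepatocyte nucleus in Aza-TdC, MASLD and SD, and a log2 ratio of MASLD to SD of 4.74. The small remainder in SD makes that size unstable. The ratio of Fasn became -1.19 and that of Acacb 1.42.

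**Figure D5:**
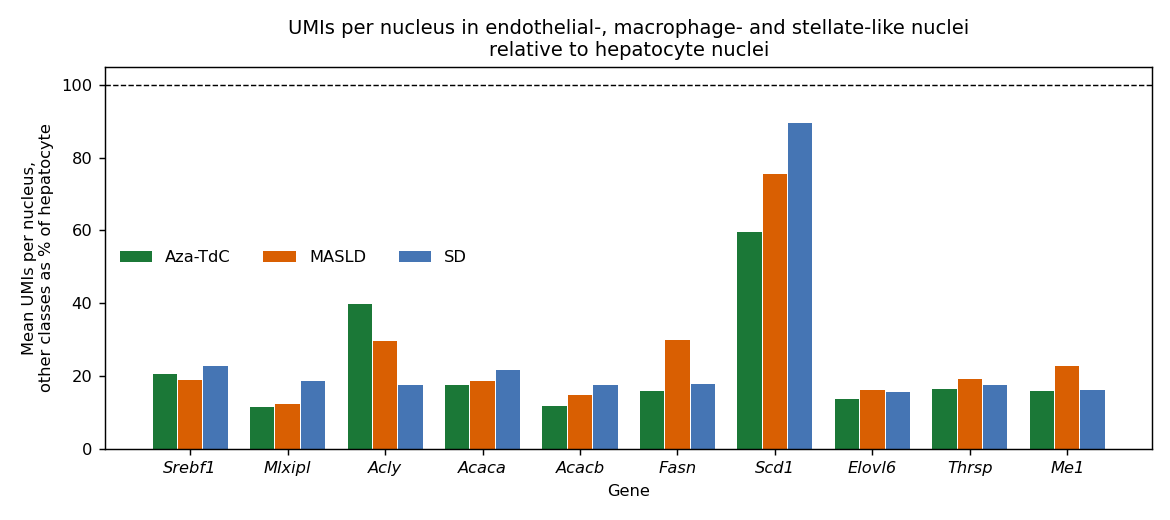
Mean UMIs per nucleus of each gene in endothelial-, macrophage- and stellate-like nuclei as a percentage of the mean in hepatocyte nuclei of the same library, for Aza-TdC, MASLD and SD from left to right. Scd1 stands at 59.5%, 75.4% and 89.6%, and the other 9 genes at 39.9% or less; the dashed line is 100%.

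Other genes of the pathway were listed in 6 groups, and 52 of 54 had enough UMIs. For MASLD against SD, 11 of the 52 were called higher and 4 lower, where 13.0% of all genes tested were called higher and 4.84% lower, with a median log2 ratio of 0.30 beside 0.15 over all genes tested. Paralogs and partners of the members held most of the higher calls, 6 of 9 measured. The elongase gene Elovl5 was at 552 CPM in MASLD and 84.7 CPM in SD (2.70, 2.65 to 2.75), and the desaturase genes Fads2 (1.47) and Fads1 (1.31), which act on polyunsaturated fatty acids, were higher as well. Scd2, a close paralog of Scd1, was at 1.91 CPM in MASLD and 0.0902 CPM in SD, from 79 and 4 UMIs. Mid1ip1, the partner of Thrsp, was at 25.4 CPM in MASLD and 20.2 CPM in SD (0.33, 0.20 to 0.46).

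Genes of substrate supply held the lower calls, 4 of 12 measured, with 1 higher. Tkfc and Khk, which handle fructose, had ratios of -2.32 (-2.37 to -2.27) and -1.32 (-1.36 to -1.27), and the liver pyruvate kinase gene Pklr was at 200 CPM in MASLD and 633 CPM in SD (-1.66, -1.70 to -1.63). Gckr, a regulator of liver sugar use, was at 252 CPM in MASLD and 514 CPM in SD (-1.03, -1.06 to -0.99). Pdk4, a kinase that shuts pyruvate dehydrogenase, was at 40.3 CPM in MASLD and 2.37 CPM in SD (4.09, 3.80 to 4.39). Of 9 regulators of SREBP and LXR, Insig2 (1.99) and Insig1 (1.25), which hold SREBP in the endoplasmic reticulum, were called higher and none lower. Of 8 known targets of SREBP1c or ChREBP, Pnpla3 was at 35.7 CPM in MASLD and 3.54 CPM in SD (3.33), and Gpam, the first acyltransferase of triglyceride synthesis, at 598 CPM in MASLD and 206 CPM in SD (1.54). None of 6 genes of NADPH supply and none of 8 genes of malonyl-CoA turnover passed 2-fold.

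For Aza-TdC against MASLD, 2 of the 52 were called higher and 3 lower, near the 2.80% and 4.87% of all genes tested, with a median of -0.11 beside -0.09 over all genes tested. Pnpla3 was at 124 CPM in Aza-TdC and 35.7 CPM in MASLD (1.79, 1.71 to 1.88), and G6pdx, the first enzyme of the pentose phosphate route, at 4.53 CPM in Aza-TdC and 1.36 CPM in MASLD (1.74, 1.31 to 2.19). Pklr was at 64.7 CPM in Aza-TdC and 200 CPM in MASLD (-1.63, -1.69 to -1.57), Taldo1 had a ratio of -1.23 and Txnip, a known ChREBP target, was at 103 CPM in Aza-TdC and 207 CPM in MASLD. Against SD, 13 of the 52 were called higher and 8 lower, where 10.0% of all genes tested were called higher and 4.79% lower, and all 8 lower genes belonged to substrate supply. Pklr, another known target of ChREBP, was lowest of these, at 64.7 CPM in Aza-TdC and 633 CPM in SD (-3.29, -3.34 to -3.24).

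Over the 15 points of 3 libraries by 5 zones, members fell into sets of like profile. These correlations of log2(CPM + 1) are a description, because points of a library share its nuclei, depth and diet. They compare the shape of profiles and not the size of differences. Acly and Fasn had r = 0.98, Srebf1 and Acacb 0.95, Acacb and Scd1 0.94, and Srebf1 and Scd1 0.93. Scd1 and Elovl6 ran opposite, with r = -0.96, and Thrsp followed none of the others, with r between -0.43 and 0.16. Among 9864 genes searched, Srebf1 was most like Fads2 and Id2 (both 0.99), Acly most like Inpp4a (0.99) and Fasn, and Fasn most like Klhl3 (0.99) and Acly. Scd1 was most like Dipk2a (0.997) and Tfpi2 (0.99), Elovl6 most like Dpyd and St3gal1 (both 0.99), and Acacb most like Spc25 and Fam13a (both 0.98). Mlxipl was most like Chd3 (0.99) and Tbc1d2b (0.98), Acaca most like Uroc1 (0.98) and D1Ertd622e (0.97), Me1 most like Tmem164 and Gabbr2 (both 0.93), and Thrsp had no closer gene than Sept1 (0.89) and Slc35f6 (0.87).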

How the data were processed

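Single-nucleus RNA-seq was read from 3 libraries, 1 per group as the sample labels give it. The authors deposited whole UMI counts per gene and nucleus, and per the file headers the tool was Cell Ranger 6.1.2. The submitters' processing notes list Seurat 4.4.0, mm10 and GRCm38 and give them no role. For the annotation, the use of introns and strand, and steps against free RNA or doublets, the sources used here say nothing. Srebf1, Mlxipl, Acaca, Elovl6 and Me1 overlap a gene on the other strand, so reads of both may be mixed if strand was not used.

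Nuclei needed at least 500 UMIs, at least 300 genes and a mitochondrial share of 5% or less, which 7591, 6726 and 7139 met in Aza-TdC, MASLD and SD. All libraries entered 1 clustering with no batch integration (scanpy 1.11.5, 3000 variable genes, 30 principal components, 15 neighbours, Leiden resolution 1). Doublets were not removed. A cluster took another class where the median log2 ratio of its markers reached 3, and lost a name where a leading gene marked another class. Cluster 17 lost its name this way, and Spp1 was passed over in cluster 15, since it is highest outside the class it marks; both stayed in the hepatocyte set. Cluster 16, shallow and rich in erythroid genes (95 Aza-TdC and 133 MASLD nuclei), was left out. UMIs were summed over nuclei and scaled to CPM by the total of hepatocyte nuclei. Genes were set against the 2-fold threshold if the 2 libraries compared held 20 UMIs or more. Zones needed at least 3 UMIs of Cyp2e1 and Cyp2f2 and left out 1194, 821 and 1457 nuclei. Ratios and intervals were first tested on simulated Poisson counts, and thinning was checked for exact totals on nuclei of the data (scipy 1.17.1, numpy 2.4.6).

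The named genes are all 10 members, up to 4 other pathway genes per group and comparison past 2-fold plus Pklr, Scd2, Mid1ip1 and Insig2 at any value, and the 2 genes of likest pattern per member, leaving out unnamed transcripts; Pklr against SD was named after its value was seen. A gene that the rule names is not reported here. Members and lists were chosen with earlier results of these data known. Alternatives changed the scaling, filters, clustering, thresholds, thinning and zones. Leaving out clusters 15 and 17 and taking off free RNA were added after seeing the data.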

Additional observations from a re-analysis of the deposited data

Results flagged for a closer look

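With zones cut within each library, 3 members had a difference between libraries of opposite sign at the ends of the lobule. Both end intervals excluded 0. With the same bounds in all libraries, the Aza-TdC to MASLD ratio of Acaca also had opposite signs at the ends. It was -0.14 (-0.19 to -0.09) in the Cyp2e1-rich bin and 0.19 (0.14 to 0.24) in the Cyp2f2-rich bin. The Aza-TdC to MASLD log2 ratio of Acacb was -0.734 in the most Cyp2e1-rich zone and 0.25 in the most Cyp2f2-rich zone, and it kept both signs with the same zone bounds in all libraries. The Aza-TdC to SD ratio of Me1 was -0.282 in the Cyp2e1-rich zone and 0.33 in the Cyp2f2-rich zone, also with both signs kept under the same bounds. The Aza-TdC to MASLD ratio of Acly was -0.298 in the Cyp2e1-rich zone and 0.40 in the Cyp2f2-rich zone, but under the same bounds the first became -0.11 (-0.31 to 0.08), an interval that holds 0. With 1 library per group, none of these differences between zones was tested over animals.

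Scd1 UMIs were present outside hepatocyte nuclei, in nuclei that the library comparisons do not use. Its level over endothelial-, macrophage- and stellate-like nuclei was 914.7 CPM in Aza-TdC, where hepatocyte nuclei held 634 CPM. It was 1669 CPM in MASLD, where hepatocyte nuclei held 909 CPM, and 163.2 CPM in SD, where hepatocyte nuclei held 80.6 CPM. The part of free RNA in these levels was not tested separately.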

How the results depend on the processing

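No paired analysis was possible because each group is 1 library. The counts of members called for MASLD against SD were 3 higher and 2 lower; 1 was higher at a 3-fold threshold and 1 (Scd1) without clusters 15 and 17, which leaves 452 MASLD nuclei, 4 were lower at 1.5-fold, and 3 were lower, with Fasn added, under median-ratio scaling, with nuclei thinned to 2000 UMIs and with free RNA taken off. For Aza-TdC against MASLD, 2 were higher at 1.5-fold in place of 0. For Aza-TdC against SD, 1 was higher at 3-fold in place of 3. The Cyp2f2-rich zone held 3 members called higher in Aza-TdC in place of 1, both with zones set by the check genes and with nuclei thinned to 2000 UMIs, and 4 in MASLD without clusters 15 and 17. Without those clusters Srebf1 had a MASLD to SD ratio of 0.86 and Acacb of 0.93. Over 12 alternatives Scd1 ran between 3.26 and 4.74 for MASLD against SD, Acly between -2.66 and -2.41 and Elovl6 between -2.83 and -2.52, and of the 10 members only Thrsp changed direction, to -0.06 with median-ratio scaling. For Aza-TdC against MASLD the direction changed for Srebf1 and Acacb in 4 alternatives each and for Scd1 in 1. An alternative leaving out clusters led by Cidec, Tox or Pkhd1 gave no value, since no cluster was. Animal-to-animal spread is unknown.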
